A study of Mus musculus with 36 samples.

Results

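The genes described here are 41 cell cycle and DNA replication genes in mouse liver, chosen by name from the textbook machinery of S phase and mitosis. They were chosen with earlier results of these data known. All 41 symbols were found among the 32544 in the table of raw counts, and all 41 passed the low-count filter that left 15338 genes to test. They comprise 5 factors of entry into S phase, 8 genes of origin licensing and the replicative helicase, 4 enzymes of the replication fork and of nucleotide supply, 8 kinases, cyclins and their regulator Foxm1, 8 genes of the spindle, chromosome structure and cytokinesis, and 8 genes of the kinetochore, the spindle checkpoint and the anaphase-promoting complex. Replication members below are the 12 genes of licensing, fork and nucleotide supply, and mitosis members are the 24 genes of the last 3 roles.

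Whole-liver RNA was sequenced from 36 mice, all male and of the strain C57BL/6N, aged 8 to 10 weeks at the start, in 6 groups of 6. Carbon tetrachloride (CCl4), a hepatotoxin that hepatocytes metabolise to radicals, was dissolved in olive oil and injected into the peritoneum 2 times a week, at a dose of 1 g/kg, for 2, 6 or 12 months. Vehicle mice had olive oil alone for 2 or 12 months, and the liver was removed on day 6 following the final injection. The sixth group is month 0, titled control although its treatment label says olive oil. No oil group of month 6 is among the samples, so month 6 was set against the mean of both oil groups on the log scale. Comparisons that use the same oil mice share those control samples. Nothing in the labels says that mice shared a cage or a batch, and p-values measure only the spread between these mice.

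Most hepatocytes of an adult liver rest outside the cell cycle and re-enter it after injury. In G1, D- and E-type cyclins release E2F factors, which switch on genes of DNA replication, and the MCM helicase is loaded onto origins with the help of Cdc6 and Cdt1. In G2 and M phase, cyclin-dependent kinase 1 with A- and B-type cyclins, polo-like and aurora kinases and Foxm1 take over, and the spindle and kinetochore genes are transcribed.

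Library totals ran from 19403247 to 28917545 counts, and the summed counts of the 41 members from 3495 to 15550 per library. Levels are CPM, the count of a gene relative to the TMM-scaled library total, fold changes are on the log2 scale, and SE is the standard error. The TMM factors followed the groups, from 0.757 to 0.868 at month 0 up to 1.236 to 1.334 in month 12 CCl4. With library totals alone the median gene shifted by 0.543 on the log2 scale at month 12, and the called genes split into 10313 higher and 587 lower in place of 3970 and 3553. Markers of hepatocytes were present in every library, and their summed level was 54400 to 98800 CPM in month 12 oil mice, with 57800 to 96400 CPM in the CCl4 mice of that month. Transcripts of other tissues or of blood differed widely between libraries. An earlier analysis had set 4 libraries apart, month 2 CCl4 replicate 1 with erythroid and neutrophil markers, month 2 CCl4 replicate 6 with intestinal markers, month 2 oil replicate 2 with pancreas acinar markers, and month 12 oil replicate 2 with mesothelial and B cell markers. Pancreas acinar sums were higher still in month 2 CCl4 replicate 5 (41900 CPM) and month 12 oil replicate 4 (38300 CPM) than in that month 2 oil mouse (21700 CPM), and month 6 CCl4 replicate 2 had the highest mesothelial sum of its group (96.8 CPM, next 38.4 CPM). The member counts below are also given without the 4 libraries, and without all 7, where that moved them.

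Of the 41 members, 33 had an entry in the RefSeq promoter table (GRCm38.p6). Ccna2, Ccnd1, Ccne2, Mcm4, Aurkb, Kif20a, Tpx2 and Foxm1 did not match. The 250 bases before the start are shown for 2 replication members, Mcm6 and Rrm2, and 2 mitosis members, Cenpf and Cdk1. These 4 had the smallest p at month 12 within their sets among the members with an entry. Capitals mark the letters found by a search of both strands for 3 motifs. These were the cell cycle homology region (CHR, here TTTGAA or else TTTAAA or else TTCGAA or else CTTGAA), the CCAAT box (CCAAT) and an E2F motif (TTTGGCGC, TTTGCCGC, TTTCGCGC or TTTCCCGC). Each sequence is given 5′ to 3′ on the strand of its gene.
Mcm6, chr1:128359706-128359955, minus strand: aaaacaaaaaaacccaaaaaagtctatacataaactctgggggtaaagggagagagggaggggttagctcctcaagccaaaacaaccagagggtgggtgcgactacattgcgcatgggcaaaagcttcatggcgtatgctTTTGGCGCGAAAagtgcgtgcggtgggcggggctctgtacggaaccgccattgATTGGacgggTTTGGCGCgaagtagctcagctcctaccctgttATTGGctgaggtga
Rrm2, chr12:24708004-24708253, plus strand: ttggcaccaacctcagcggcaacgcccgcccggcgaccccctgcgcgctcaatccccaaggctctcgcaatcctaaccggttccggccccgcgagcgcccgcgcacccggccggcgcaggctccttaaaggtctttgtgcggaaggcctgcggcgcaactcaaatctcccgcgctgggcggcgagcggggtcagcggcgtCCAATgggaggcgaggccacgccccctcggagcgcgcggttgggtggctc
Cenpf, chr1:189688087-189688336, minus strand: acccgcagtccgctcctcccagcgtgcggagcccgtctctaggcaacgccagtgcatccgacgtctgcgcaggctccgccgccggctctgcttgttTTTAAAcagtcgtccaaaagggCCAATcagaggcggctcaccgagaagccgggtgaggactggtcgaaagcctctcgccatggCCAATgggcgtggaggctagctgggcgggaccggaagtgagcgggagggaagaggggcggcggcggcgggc
Cdk1, chr10:69352913-69353162, minus strand: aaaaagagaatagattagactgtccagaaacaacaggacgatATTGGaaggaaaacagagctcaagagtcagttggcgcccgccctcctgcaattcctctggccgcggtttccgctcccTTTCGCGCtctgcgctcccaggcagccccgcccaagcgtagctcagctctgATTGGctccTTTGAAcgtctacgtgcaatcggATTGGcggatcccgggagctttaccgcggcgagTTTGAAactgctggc

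The Mcm6 window held 3 E2F matches, the first bases of which lay 110, 106 and 47 bases before the start, the first pair of them overlapping, and 2 CCAAT boxes. In the Rrm2 window a single CCAAT box was found, 50 bases before the start, and no CHR or E2F match. The Cenpf window held a CHR match at 154 bases and CCAAT boxes at 132 and 71 bases before the start. The Cdk1 window had matches to all 3 motifs, with CHR letters at 71 and 15 bases and an E2F match at 131 bases before the start. Over the matched members, a CHR and a CCAAT box stood together in 13 of 19 mitosis members (68.4%) and 3 of 11 replication members (27.3%), against 12.3% of 27025 genes of the table. An E2F match was found in 4 of 11 replication members (36.4%; Cdc6, Mcm5, Mcm6 and Mcm7) and 1 of 19 mitosis members (5.26%, Cdk1), against 1.91% of all genes. For genes with several starts, 3 of them members, the first entry of the table was used. The start is that of the RefSeq table and differs from the GENCODE gene bounds given below for Mcm6, Rrm2 and Cdk1. The Rrm2 and Cdk1 windows run into those bounds, and the Cdk1 CHR match at 15 bases lies within them. A match is a description of letters, not a binding site.

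**Figure D1:**
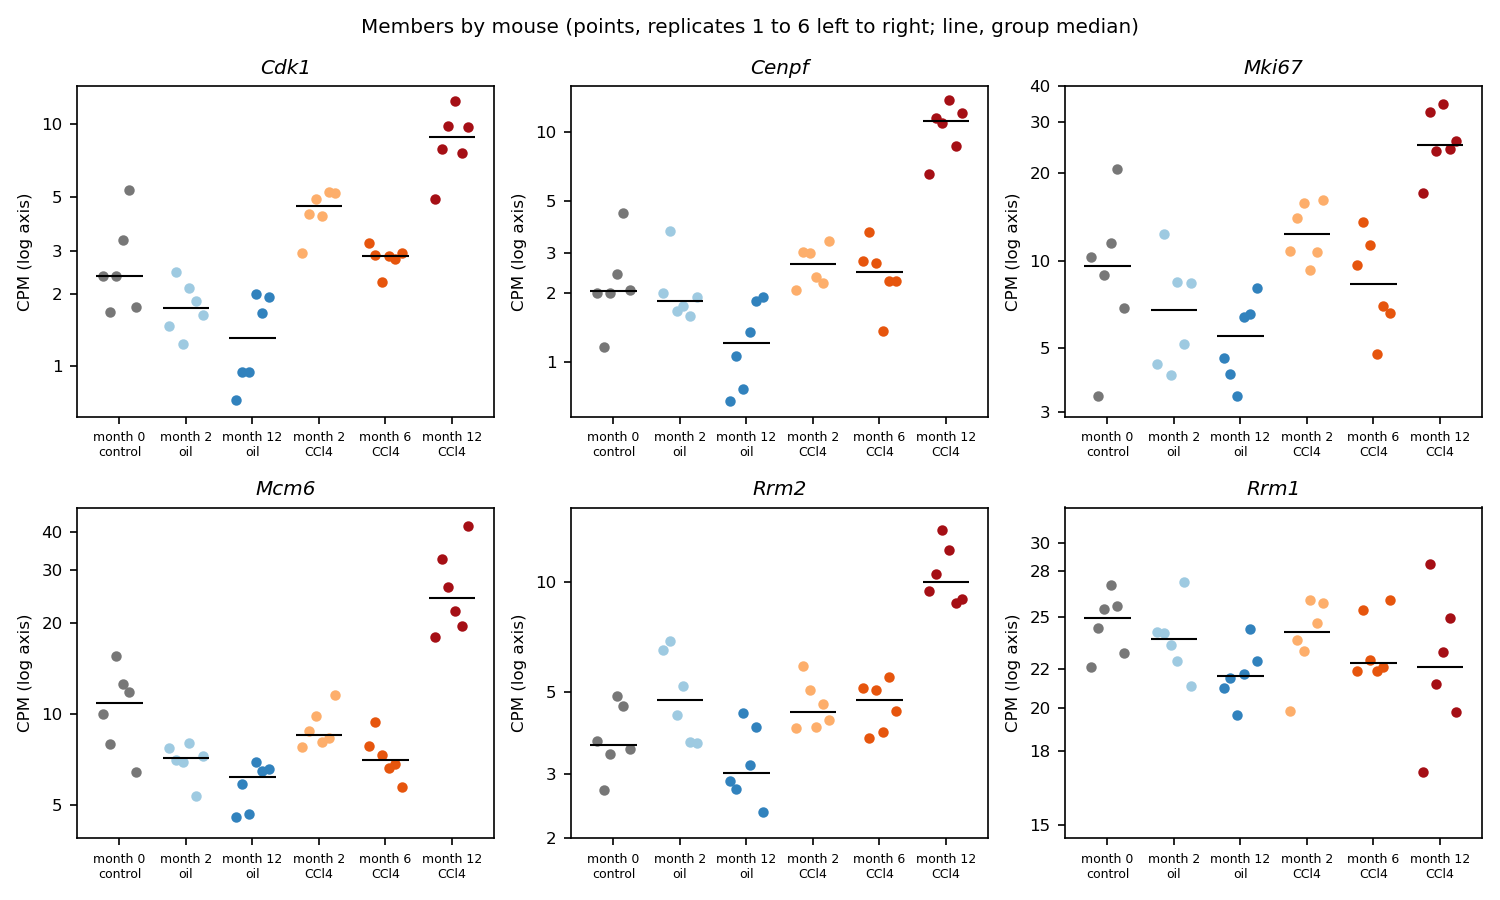
Level of Cdk1, Cenpf, Mki67, Mcm6, Rrm2 and Rrm1 in every mouse, in CPM on a log axis, by group; points are replicates 1 to 6 from left to right and lines are group medians. In Cdk1, Cenpf, Mki67, Mcm6 and Rrm2 all 6 mice of month 12 CCl4 lie above all 6 of month 12 oil, while Rrm1 overlaps.

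At month 12, 38 of the 41 members were higher in CCl4 than in oil livers and none was lower, by the quasi-likelihood test of edgeR with a threshold of 0.05 on p-values adjusted after Benjamini and Hochberg across the 15338 genes. The share of all tested genes called in either direction was 49%, and 25.9% were called higher. Because the members were chosen with earlier results known, setting them beside these shares is a description and not a test. The median member difference was 1.90, against 0.014 over all tested genes. In 35 members every CCl4 mouse lay above every oil mouse, a separation seen in 12.1% of all tested genes. The median difference was 2.35 over the mitosis members and 0.91 over the replication members. In bulk liver, more cells of a type and more RNA per cell cannot be told apart.

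Among the factors of S phase entry, 4 of 5 rose at month 12, with a median of 0.92 over the role. E2f1, an activating E2F factor (chr2:154559407-154569892 in mm10, minus strand), had a lowest, median and highest level of 1.86, 2.10 and 2.84 CPM in oil and 3.33, 4.34 and 5.00 CPM in CCl4. The groups did not overlap, and the difference was 0.92 (SE 0.143, adjusted p = 2.59e-06). Ccne1 encodes cyclin E1, which opens S phase with Cdk2 (chr7:38097984-38107534, minus strand). Its levels were 0.317, 0.543 and 2.48 CPM in oil and 1.49, 2.82 and 10.6 CPM in CCl4. Here the ranges overlapped, since oil replicate 4 lay inside the CCl4 range and CCl4 replicate 2 stood far above the other mice, and the difference was 2.24 (SE 0.542, adjusted p = 0.000893). Ccnd1 encodes cyclin D1, the G1 cyclin that hepatocytes induce on entering the cycle (chr7:144929931-144939925, minus strand). It lay at 15, 29.1 and 38.2 CPM in oil and 46.1, 59.2 and 64.7 CPM in CCl4, without overlap, a difference of 1.04 (SE 0.261, adjusted p = 0.00134). Ccne2, the second E-type cyclin, rose by 0.58 (SE 0.213, adjusted p = 0.0225) with overlapping ranges, 1.72 to 3.05 CPM in oil and 2.22 to 4.11 CPM in CCl4. Without month 12 oil replicate 1, 3 or 4, or without CCl4 replicate 6, its adjusted p reached up to 0.058. E2f2, another activating E2F (chr4:136172394-136196057, plus strand), did not pass the test. It was at 0.952, 1.63 and 2.75 CPM in oil and 1.97, 2.57 and 3.28 CPM in CCl4, a difference of 0.49 (SE 0.259, adjusted p = 0.115). Scaling by library totals alone put E2f2 past the threshold (1.03, adjusted p = 0.00089), as did the fit without the 4 libraries (0.60, adjusted p = 0.0281), but not that without the 7 (0.52, adjusted p = 0.0711).

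All 8 genes of licensing and helicase rose at month 12, with a median of 1.14, and in 7 of them the groups did not overlap. Mcm6, a subunit of the MCM2-7 helicase (chr1:128331590-128359664, minus strand), whose promoter is printed above, was at 4.56, 6.17 and 6.91 CPM in oil and 18, 24.2 and 42 CPM in CCl4. The lowest CCl4 mouse was far above the highest oil mouse, and the difference of 2.19 (SE 0.19, adjusted p = 3.61e-11) had the smallest p of the 41 members. Mcm3, another subunit (chr1:20802968-20820312, minus strand), was at 4.51, 4.73 and 5.54 CPM in oil and 8.47, 9.85 and 15.5 CPM in CCl4, a difference of 1.11 (SE 0.155, adjusted p = 4.64e-07). The subunits did not move by the same size. Mcm2 rose by 1.40 and Mcm5 by 1.17, while Mcm4 rose by 0.64 and Mcm7 by 0.52. Mcm7 still separated the groups, at 9.54 to 14.4 CPM in oil and 14.8 to 23.5 CPM in CCl4. Cdc6, an ATPase that loads the helicase, was at 0.136, 0.316 and 0.462 CPM in oil and 0.693, 1.09 and 1.52 CPM in CCl4, a difference of 1.80 (SE 0.348, adjusted p = 6.38e-05). Cdt1, its partner in loading, overlapped between groups, with 0.911 to 2.71 CPM in oil and 1.57 to 3.57 CPM in CCl4 (0.71, SE 0.273, adjusted p = 0.0306). The call of Cdt1 was lost without CCl4 replicate 1, without oil replicate 1, 2, 3 or 6, and without the 4 libraries named above.

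The fork and nucleotide enzymes were divided: 2 of 4 rose and the role's median was 0.24. Rrm2, the regulated small subunit of ribonucleotide reductase, which makes deoxynucleotides (chr12:24708241-24714146, plus strand), was at 2.35, 3.02 and 4.40 CPM in oil and 8.78, 9.96 and 13.9 CPM in CCl4. Groups did not overlap, and the difference was 1.71 (SE 0.175, adjusted p = 1.16e-09). Rrm1, the large subunit of the same enzyme (chr7:102441695-102469771, plus strand), was at 19.6, 21.6 and 24.3 CPM in oil and 17.1, 22.1 and 28.5 CPM in CCl4. The CCl4 range enclosed the oil range, and the difference was 0.04 (SE 0.089, adjusted p = 0.719). Pcna, the sliding clamp of DNA polymerase (chr2:132249162-132253314, minus strand), was at 27.2, 29.4 and 30.2 CPM in oil and 36, 39 and 44.5 CPM in CCl4. The groups did not overlap for Pcna, and the difference, at 0.44 (SE 0.064, adjusted p = 8.33e-07), was the smallest of the 38 that were called. Pcna has near-identical processed copies, so its counts are uncertain to the extent that reads were divided among them. Tyms, thymidylate synthase (chr5:30058202-30073617, minus strand), was at 11.8, 13.6 and 15 CPM in oil and 10.8, 12.8 and 13.9 CPM in CCl4, a difference of -0.07 (SE 0.08, adjusted p = 0.486). Rrm1 and Tyms were named after their values were seen, as the members not called. With library totals alone both were called higher, Rrm1 by 0.59 (adjusted p = 6.37e-06) and Tyms, whose sign turned, by 0.48 (adjusted p = 8.94e-06).

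All 8 kinases, cyclins and Foxm1 rose without overlap of the groups, with a median of 2.67. Cdk1, the kinase that drives mitotic entry (chr10:69335146-69352938, minus strand), was at 0.729, 1.31 and 1.99 CPM in oil and 4.92, 8.83 and 12.5 CPM in CCl4, a difference of 2.67 (SE 0.262, adjusted p = 5.1e-10). Ccnb2, a B-type partner cyclin of Cdk1 (chr9:70407692-70421547, minus strand), was at 0.180, 0.364 and 0.630 CPM in oil and 2.29, 2.95 and 5.06 CPM in CCl4 (3.03, SE 0.33, adjusted p = 4.3e-09). Ccnb1, cyclin B1 (chr13:100778650-100786570, minus strand), rose by 3.16 (SE 0.359, adjusted p = 9.6e-09), the highest fold of the 41 members, from a range of 0.499 to 0.993 CPM to one of 4.51 to 10.6 CPM. In all 3 genes the lowest CCl4 mouse was above the highest oil mouse. Plk1, polo-like kinase 1 (chr7:122159439-122169873, plus strand), rose by 3.06 (SE 0.52, adjusted p = 1.01e-05), with 0.0456 to 0.360 CPM in oil and 1.14 to 3.10 CPM in CCl4. Its lowest library held 1 count, so the fold of Plk1 is imprecise. Ccna2, cyclin A2, rose by 2.505, Aurkb by 2.67 and Aurka by 1.755. Foxm1, a transcription factor of G2 and M phase genes, was at 0.0907, 0.272 and 0.541 CPM in oil and 0.814, 1.40 and 2.08 CPM in CCl4 (2.34, SE 0.441, adjusted p = 4.38e-05). Ccnb1 and Ccnb2 also have processed copies in the genome.

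The 8 genes of spindle, chromosome structure and cytokinesis rose without overlap, with a median of 2.10. Nusap1, a microtubule-binding spindle protein (chr2:119618298-119651244, plus strand), was at 0.998, 1.44 and 1.85 CPM in oil and 3.92, 5.13 and 6.99 CPM in CCl4 (1.945, SE 0.2, adjusted p = 1.33e-09). Kif20a, a kinesin of cytokinesis, was at 0.816, 1.34 and 2.27 CPM in oil and 6.28, 7.70 and 12.3 CPM in CCl4 (2.60, SE 0.295, adjusted p = 9.27e-09). Mki67, which encodes the proliferation antigen Ki-67 (chr7:135689784-135716361, minus strand), was at 3.40, 5.51 and 8.06 CPM in oil and 17.1, 25.1 and 34.8 CPM in CCl4 (2.26, SE 0.319, adjusted p = 6.61e-07). In each of these 3 the month 12 CCl4 mice formed a separate upper range. Tpx2, a spindle assembly factor, rose by 2.82 and Prc1, which bundles midzone microtubules, by 2.36. Kif11, the kinesin that separates spindle poles, rose by 1.90. Smaller changes within the role were those of Top2a, the topoisomerase that untangles chromosomes (1.365), and Birc5, which encodes survivin (1.19).

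The 8 genes of kinetochore, checkpoint and anaphase-promoting complex also rose without overlap, with a median of 2.24. Cenpf, a kinetochore protein of G2 and M phase (chr1:189640606-189688086, minus strand), was at 0.684, 1.21 and 1.93 CPM in oil and 6.59, 11.2 and 13.8 CPM in CCl4 (3.05, SE 0.283, adjusted p = 1.64e-10). Mad2l1, a spindle checkpoint protein (chr6:66535390-66547220, plus strand), was at 3.51, 4.37 and 5.00 CPM in oil and 7.65, 8.95 and 10.1 CPM in CCl4 (1.07, SE 0.121, adjusted p = 9.92e-09). The fold of Mad2l1 was among the lower ones of the role although its groups were as cleanly apart. Cdc20, an activator of the anaphase-promoting complex, rose by 2.84 and Bub1, a checkpoint kinase, by 2.635. Cenpe, a kinetochore motor, rose by 2.33, Ube2c, the ubiquitin-conjugating enzyme of the complex, by 2.14 and Bub1b by 2.09. Cenpa, the centromeric histone H3 variant, had the lowest fold of the role (0.92, SE 0.151, adjusted p = 6.22e-06).

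**Figure D2:**
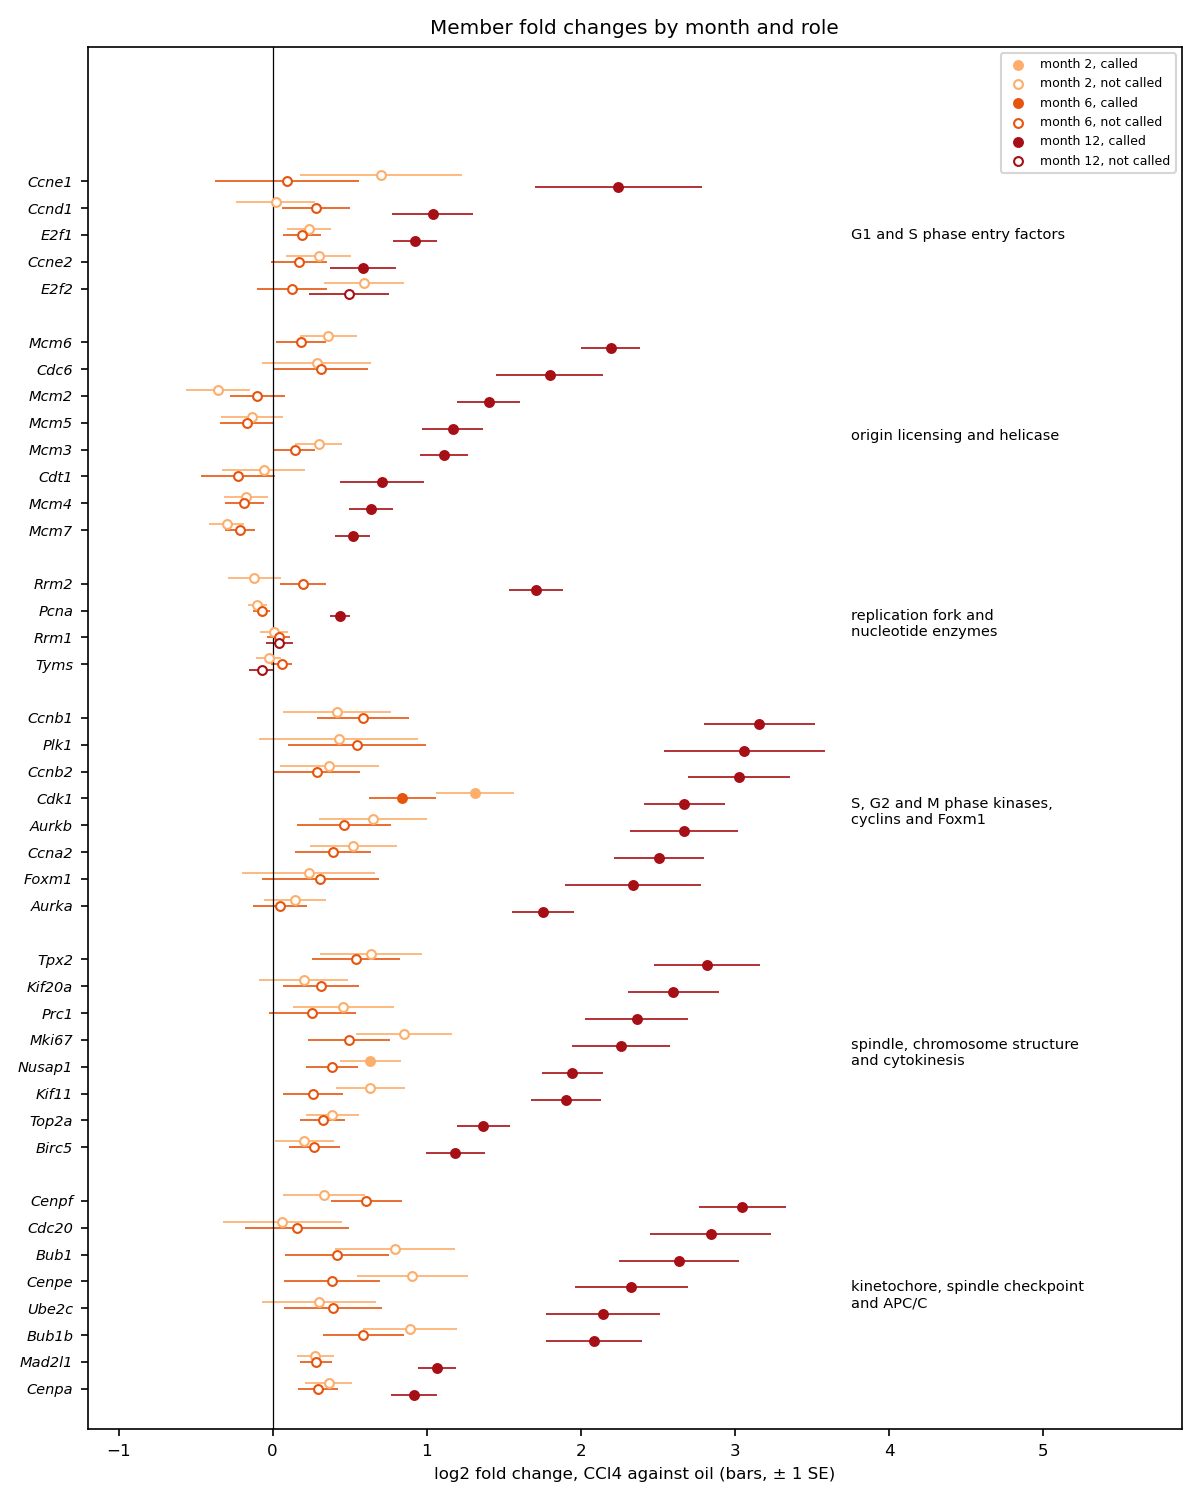
Log2 fold change of each of the 41 members, with 1 SE to each side, for CCl4 against oil at months 2, 6 and 12, grouped by role; filled points passed an adjusted p below 0.05. At month 12 there are 38 filled points, all higher, against 2 at month 2 and 1 at month 6.

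Markers of other cells moved with the month 12 result. The summed level of all 8 listed markers of monocyte-derived macrophages was 23.3 to 54.7 CPM in oil and 140 to 166 CPM in CCl4, and that of 10 cholangiocyte markers 47.5 to 104 CPM and 251 to 1190 CPM. The sum of 10 T and NK cell markers was 5.00 to 8.83 CPM in oil and 9.22 to 15.8 CPM in CCl4, and that of 6 of 7 listed oncofetal hepatocyte markers 14.1 to 31 CPM and 136 to 1050 CPM. Endothelial markers overlapped, at 314 to 389 CPM in oil and 305 to 428 CPM in CCl4. None of these marker genes was at 0 counts over a group. Their part in the levels of the cell cycle members was not tested.

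Early in the treatment few members passed the test. At month 2, 2 of 41 were called, both higher, with 10.3% of all tested genes called in either direction and 6.93% called higher. Fitted differences were positive in 33 members and negative in 8, from -0.36 to 1.32, with a median of 0.30 against 0 over all tested genes. Cdk1 rose by 1.32 (SE 0.253, adjusted p = 0.000724). It was at 1.24, 1.75 and 2.46 CPM in month 2 oil and 2.94, 4.59 and 5.27 CPM in month 2 CCl4, the only member whose groups did not overlap, where 4.64% of all tested genes separated in that direction. Nusap1 rose by 0.63 (SE 0.198, adjusted p = 0.0347), from 1.41, 1.44 and 2.38 CPM to 1.64, 2.51 and 3.47 CPM with overlapping ranges, the highest oil mouse being replicate 2. Bub1b, at 0.836, 1.04 and 2.20 CPM in oil and 1.41, 2.60 and 3.04 CPM in CCl4, missed the threshold (0.89, SE 0.307, adjusted p = 0.058). So did Kif11 (0.63, adjusted p = 0.0647) and Mki67, which was at 4.04, 6.75 and 12.3 CPM in oil and 9.31, 12.4 and 16.2 CPM in CCl4 (0.85, SE 0.31, adjusted p = 0.074). Without month 2 oil replicate 2, the mouse with the highest level of several mitosis members, 5 members were called, Mki67 (1.08), Kif11 (0.81) and Bub1b (1.11) among them. Without month 2 CCl4 replicate 4 there were 4. Nusap1 lost its call in 9 of 12 omissions of 1 mouse, with adjusted p up to 0.105, and also without the 4 or the 7 libraries, where 1 call was left each time. DESeq2 called 4, a fit of the compared groups alone 6 (5 higher and Mcm7 lower), and library totals alone 13. Library totals alone also shifted the median gene upward, and shares of all tested genes called in these fits are not given here. Markers of other cells separated the month 2 groups too, oil against CCl4. Sums were 23.5 to 65 against 88.6 to 101 CPM for monocyte-derived macrophages, 433 to 707 against 762 to 1050 CPM for stellate cells and fibroblasts, and 294 to 364 against 365 to 446 CPM for endothelium. Neutrophil markers summed to 11.2 to 19.7 against 23.3 to 240 CPM, oncofetal hepatocyte markers to 19 to 23.1 against 26 to 50 CPM, and hepatocyte markers to 81600 to 100000 against 71500 to 78200 CPM. Their part in the month 2 result was not tested.

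The replication members gave other values at month 2. Of the 12, 4 had a positive fitted difference, with a median of -0.08, and edgeR and DESeq2 each called 0 of them, with 1 (Mcm7) at an unadjusted p below 0.05, while all 24 mitosis members were positive, with a median of 0.42 and 2 called. Mcm6 was at 5.34, 7.15 and 8.00 CPM in oil and 7.78, 8.54 and 11.5 CPM in CCl4 (0.36, adjusted p = 0.228). Rrm2, at 3.63, 4.77 and 6.91 CPM in oil and 3.99, 4.41 and 5.91 CPM in CCl4, gave -0.12, and Mcm7, at 11.6 to 13.1 and 8.40 to 12.3 CPM, gave -0.30 (adjusted p = 0.0911). With library totals alone the fitted sign of Mcm4 (from -0.17 to 0.03), Mcm5 (from -0.135 to 0.07), Pcna (from -0.10 to 0.10) and Rrm2 (from -0.12 to 0.09) turned. Without the 7 libraries the sign of Mcm5 (0.07) and Rrm2 (0.09) turned as well.

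At month 6, 1 of 41 members was called against the mean of the oil groups, with 11.3% of all tested genes called in either direction and 7.69% higher. It was Cdk1, at 2.22, 2.86 and 3.23 CPM (0.84, SE 0.215, adjusted p = 0.00825), whose range overlapped that of the oil mice. Positive fitted differences were found in 35 members, with a median of 0.28. The next smallest p-values were those of Mad2l1 (0.28, adjusted p = 0.0734) and Cenpf (0.61, adjusted p = 0.0855). Cenpf was at 1.37, 2.48 and 3.70 CPM at month 6 and 2.06, 2.67 and 3.36 CPM in month 2 CCl4, overlapping month 2 oil (1.60, 1.84 and 3.74 CPM). Mki67, at 4.78, 8.30 and 13.6 CPM, gave 0.50 (adjusted p = 0.25). Against month 2 oil alone no member was called and Cdk1 gave 0.65 (adjusted p = 0.11). Against month 12 oil alone, and without the 4 libraries, 2 members were called, the second being Cenpf. Library totals alone called 25, in a run where the median gene also shifted upward. The share of all tested genes called in that run is not given here. Without month 6 CCl4 replicate 4 there were 3 calls, and without month 6 CCl4 replicate 5 or month 2 oil replicate 2 there were 2. The sum of monocyte-derived macrophage markers was 93.9 to 221 CPM at month 6, above both oil groups, and its part in the result was not tested.

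The difference between month 12 and month 2 in the CCl4 effect was tested as an interaction. It passed in 34 of 41 members, all with a higher effect at month 12, with 21.2% of all tested genes called and 11.1% in that direction. Of the replication members 9 of 12 passed, with a median of 0.82, and of the mitosis members 23 of 24, with a median of 1.84. Rrm2 gave 1.82 (SE 0.243, adjusted p = 1.52e-06), Cenpf 2.71 (SE 0.384, adjusted p = 3.99e-06) and Mcm6 1.83 (SE 0.262, adjusted p = 4.54e-06). For Cdk1, already called at month 2, the interaction was 1.355 (SE 0.357, adjusted p = 0.00583). The members that did not pass were Ccne1 (1.54, adjusted p = 0.147, or 2.255 and 0.0245 without month 12 oil replicate 4), Ccne2 (0.29), E2f2 (-0.10), Cdt1 (0.77, adjusted p = 0.161), Rrm1 (0.04), Tyms (-0.05) and Cenpa (0.55, adjusted p = 0.06). E2f2 turned to a positive sign with library totals alone (0.25), without the 4 libraries (0.36) and without the 7 (0.31), and was not called there. With the 4 libraries left out 27 members passed, and with the 7 left out 22, without Mcm3 (0.57, adjusted p = 0.147), Mcm4 (0.665, adjusted p = 0.0661), Cdc6 and Mki67 (1.09, adjusted p = 0.165), among others.

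**Figure D3:**
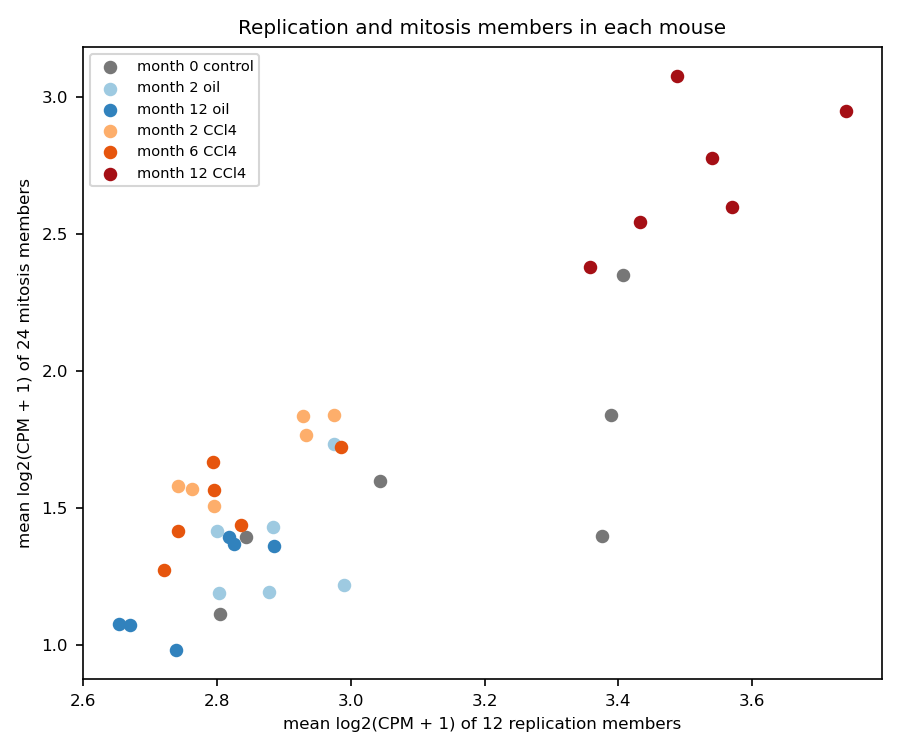
Mean log2(CPM + 1) of the 24 mitosis members (vertical axis) against that of the 12 replication members (horizontal axis), 1 point per mouse, coloured by group. The 6 month 12 CCl4 mice lie at 2.379 or above on the vertical axis, and month 0 replicate 5 is the nearest mouse of another group at 2.351.

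The balance between the sets was also followed in each mouse as the mean log2(CPM + 1) over the members of a set. This mean over the replication members was 2.653 to 2.885 in month 12 oil mice, while the CCl4 mice had 3.358 to 3.74. Over the mitosis members it ranged from 0.980 to 1.395 and from 2.379 to 3.077. Neither pair of ranges overlapped. The replication mean minus the mitosis mean was 1.525 ± 0.2 (SD, n = 6) in month 2 oil, 1.556 ± 0.12 (SD, n = 6) in month 12 oil, 1.173 ± 0.066 (SD, n = 6) in month 2 CCl4, 1.298 ± 0.116 (SD, n = 6) in month 6 CCl4 and 0.801 ± 0.211 (SD, n = 6) in month 12 CCl4. Every month 12 CCl4 mouse (0.411 to 0.979) had a smaller difference than every month 2 CCl4 mouse (1.092 to 1.289), and these in turn overlapped with month 2 oil (1.241 to 1.771) only at the edge. Because the members were chosen with results known, these differences are given without a test. They also depend on the pseudocount, which weighs more on low genes such as Plk1 and Foxm1. Within month 12 CCl4 the sets did not peak in the same mouse: replicate 4 had the highest mitosis mean (3.077) and the smallest difference, and replicate 2 the highest replication mean (3.74).

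From month 6 to month 12 of CCl4, 36 of 41 members were called higher and none lower, with a median of 1.46, where 39.1% of all tested genes were called and 20.5% were higher. In 33 members every month 12 mouse lay above every month 6 mouse, as in 8.59% of all tested genes. Mcm6 rose by 1.87 (adjusted p = 1.56e-09), Aurka, a kinase of spindle poles, by 1.73 (adjusted p = 3.04e-08) and Cenpf by 2.08 (adjusted p = 1.92e-07). Mcm6 was at 5.72, 7.06 and 9.44 CPM at month 6, so that its month 6 mice reached into the range of the month 2 oil mice. The members not called were Ccnd1 (0.60, adjusted p = 0.0622), Ccne2, E2f2, Rrm1 and Tyms. Age and length of treatment cannot be told apart in this comparison. From month 2 to month 6 of CCl4 edgeR called 0 members and DESeq2 also 0, where 0.489% of all tested genes were called, and 3 had an unadjusted p below 0.05. These were Cdk1 (-0.67, adjusted p = 0.355), Kif11 (-0.50) and Ccne2 (-0.44), all fitted lower at month 6.

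The oil groups themselves were compared with month 0. In month 2 oil, 13 of 41 members were lower than at month 0 and none was higher, with 31.1% of all tested genes called and 16.4% lower. Of the licensing genes 6 of 8 were lower, with a median of -0.62, and over all members the median was -0.54. Mcm5, a helicase subunit (chr8:75109569-75128439, plus strand), was at 3.3, 7.02 and 9.83 CPM at month 0 and 2.63, 3.18 and 4.26 CPM in month 2 oil (-1.06, SE 0.198, adjusted p = 0.000123). Mcm4 fell by 0.61 (adjusted p = 0.00159) and Mcm3 by 0.63 (adjusted p = 0.00234), the latter from 5.65, 7.31 and 10.7 CPM to 4.44, 4.99 and 5.50 CPM. Groups did not overlap in 2 members, Mcm3 and E2f2 (-0.89, adjusted p = 0.00908), where 6.92% of all tested genes separated in that direction. In Mcm5 the month 0 range, given above, held that of month 12 CCl4 (6.40, 6.98 and 8.86 CPM) within it. The same held for Ccnd1 (33.8 to 89.9 and 46.1 to 64.7 CPM) and Cdc6 (0.31 to 1.57 and 0.693 to 1.52 CPM). The ranges also overlapped in other members, such as Mcm2 (4.18 to 9.91 and 6.75 to 14.3 CPM) and Mki67 (3.41 to 20.6 and 17.1 to 34.8 CPM). They did not in others, such as Mcm6 (6.4 to 15.5 and 18 to 42 CPM). Month 0 and month 12 CCl4 were not tested against each other. Mitosis members called lower were 6 of 24, Ccnb1 (-1.11), Cenpe (-0.94), Ccna2 (-0.77), Aurka (-0.68), Cdk1 (-0.66, adjusted p = 0.049) and Top2a (-0.53).

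The month 0 mice were not alike. Replicate 5 had the highest mean of both sets (3.407 and 2.351), a Ccnd1 level of 89.9 CPM where the next mouse had 54.3 CPM, and the highest sum of cholangiocyte markers of its group (423 CPM). Without it 9 members were called, and Cdk1, Ccna2, Ccnb1, Top2a and Cenpe were no longer among them. Without month 0 replicate 2 there were 19, as there were without the 4 libraries. With a fit of the compared groups alone there were 8. With library totals alone the count was 9, of which 6 were lower and 3, Pcna, Rrm2 and Cenpa, higher. Markers of other cells moved with this comparison. Without overlap, the neutrophil sum was 48.1 to 120 CPM at month 0 and 11.2 to 19.7 CPM in month 2 oil, and that of B and plasma cells 3.29 to 7.59 CPM and 10.2 to 74.2 CPM. With overlap at the edges, Kupffer cell markers summed to 472 to 676 CPM at month 0 and 349 to 492 CPM in oil, endothelial markers to 349 to 444 and 294 to 364 CPM, and monocyte-derived macrophage markers to 16.8 to 24.8 and 23.5 to 65 CPM. Erythroid markers summed to 281 to 1160 and 1030 to 1850 CPM, and mesothelial markers to 5.9 to 18.2 and 16.9 to 35.3 CPM. The part of these markers in the result was not tested. Age and oil injections cannot be told apart between these groups.

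Between month 2 and month 12 of oil, edgeR called 0 members, where 0.0652% of all tested genes were called, and 4 had an unadjusted p below 0.05, all fitted lower at month 12. They were Rrm2 (-0.63, adjusted p = 0.123), Cenpf (-0.72), Ccne2 (-0.62) and Pcna (-0.14). DESeq2 called 1 of them lower, Rrm2, as did library totals alone.

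**Figure D4:**
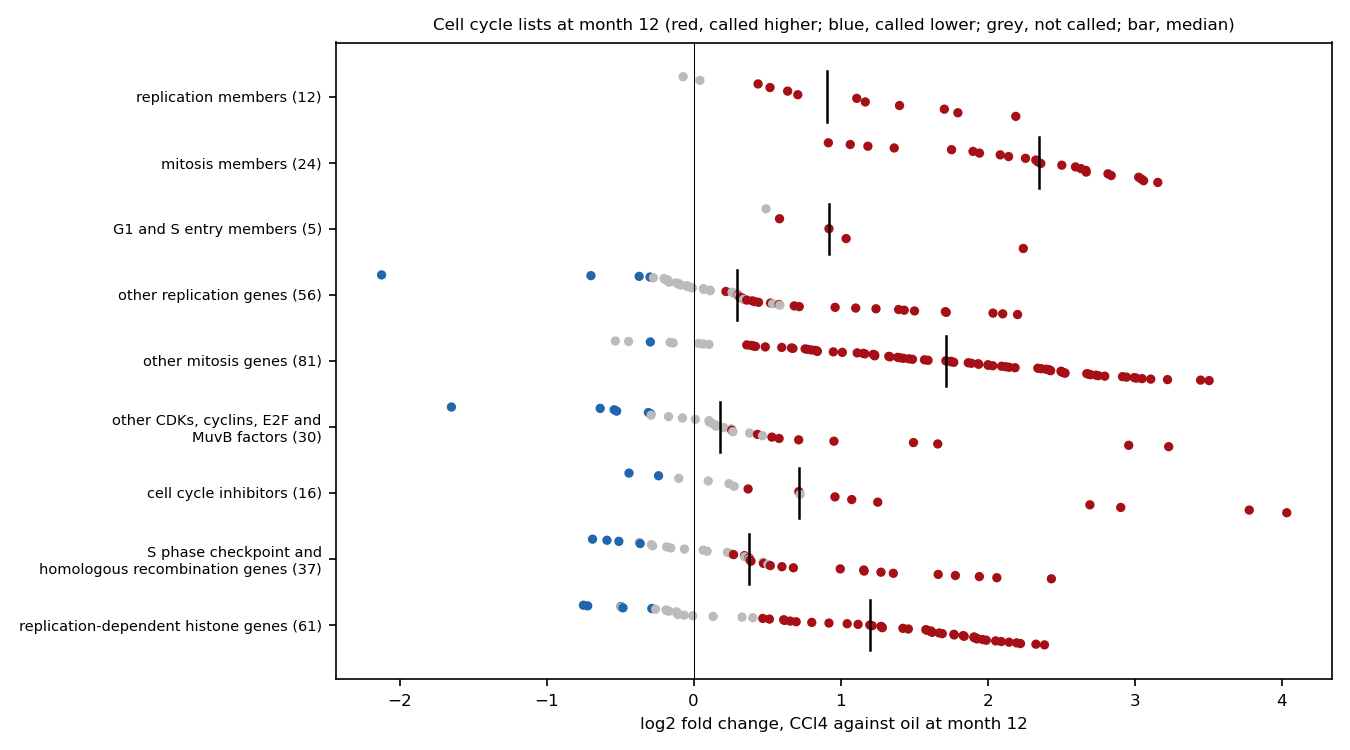
Log2 fold change at month 12, CCl4 against oil, of the tested genes of each list, 1 point per gene; red is called higher, blue called lower and grey not called, and the bar is the median. The members are drawn in separate rows for replication, mitosis and S phase entry, and their pooled median of 1.90 is not drawn. Members and other mitosis genes (median 1.72) lie mostly above 0. The replication members have a lower median than the mitosis members, and the other replication genes centre nearer to 0 (0.298).

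Other genes of the pathway were read from lists drawn from textbook knowledge, also with earlier results of these data known. Of 81 tested mitosis genes outside the members, 73 were higher and 1, Ncapd3 of condensin II (-0.29), lower at month 12, with a median of 1.72. Over all tested genes, 49% were called at month 12 and 25.9% were higher. Ncapd3 reached an adjusted p of 0.05 without month 12 CCl4 replicate 1, and its sign turned with library totals alone (0.27). Examples are Cdca3, a trigger of mitotic entry (2.40, adjusted p = 3.78e-11), Arhgap11a (2.37, adjusted p = 1.48e-10) and Sgol2a, a protector of centromeric cohesion (3.45, adjusted p = 6.19e-10). At month 2, 8 of the 81 were higher and none lower, where 6.93% of all tested genes were called higher. That count was 20 with library totals alone, 4 with no low-count filter, 4 without month 2 CCl4 replicate 3 or oil replicate 5, and 5 without oil replicate 1 or 3 or CCl4 replicate 6. Of 56 other replication genes 24 were higher and 4 lower at month 12, with a median of 0.298. The share of this list called in either direction was near the 49% called over all tested genes. By direction the share was not near: 24 of 56 were higher, where 25.9% of all tested genes were called higher. Lig1, the ligase that joins Okazaki fragments, rose by 1.72 (adjusted p = 3.94e-10), from 1.77 ± 0.328 CPM (SD, n = 6) to 5.85 ± 0.673 CPM (SD, n = 6). Chaf1a, of the histone chaperone behind the fork, rose by 2.10 (adjusted p = 1.58e-09) and Uhrf1, which recruits maintenance DNA methylation, by 2.20 (adjusted p = 9.17e-07).

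Against its list, Mcm10, an initiation factor that joins the helicase at origins (chr2:4989714-5012791, minus strand), fell by 2.12 (SE 0.365, adjusted p = 1.52e-05), from 38.2 to 134 CPM in oil to 6.02 to 33.4 CPM in CCl4. All CCl4 mice lay below all oil mice, and Mcm10 was also called with library totals alone (-1.55). Dna2, a flap nuclease, fell by 0.70, but its value was -0.14 and not called with library totals alone. The call of Dctpp1 was lost without CCl4 replicate 2, 4, 5 or 6 (adjusted p up to 0.0843). Orc3 (-0.37) and Dctpp1 (-0.30) turned to 0.18 and 0.26 under that scaling, which called 51 genes of this list higher and 1 lower.

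Among 30 other cyclin-dependent kinases, cyclins and factors of the E2F and MuvB complexes, 10 were higher and 6 lower, with a median of 0.178, shares near those of all tested genes (49% called, 25.9% higher). Mybl1, a Myb factor, rose by 3.23 (adjusted p = 2.21e-11), from 0.780 ± 0.152 CPM (SD, n = 6) to 7.37 ± 2.59 CPM (SD, n = 6). Pkmyt1, an inhibitory kinase of Cdk1, rose by 2.96 (adjusted p = 1.36e-08) and Ccnd3, cyclin D3, by 0.58 (adjusted p = 1.81e-05). E2f8, a repressive E2F known for its part in hepatocyte polyploidy (chr7:48866429-48881596, minus strand), fell by 1.65 (SE 0.321, adjusted p = 7.63e-05). It was at 5.77 to 18.9 CPM in oil and 2.58 to 5.20 CPM in CCl4, without overlap, and stayed the only lower call of this list with library totals alone, beside 23 higher. The other genes called lower were Tfdp2 (-0.64), Lin52 (-0.54), E2f6 (-0.52), E2f5 (-0.31) and Ccnh (-0.29). Without CCl4 replicate 2 the adjusted p of E2f5 was 0.0507. Under library totals Tfdp2 gave -0.08 and was not called, and the sign of Lin52, E2f6, E2f5 and Ccnh turned positive.

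Cell cycle inhibitors rose as well, 9 of 16, with 2 lower and a median of 0.72. Among all tested genes 49% were called at month 12 and 25.9% were higher. With library totals alone most of all tested genes were called higher at that month. Cdkn3, a phosphatase of Cdk1 and Cdk2 that is itself transcribed in dividing cells, was at most 0.225 CPM in month 12 oil and 1.56 to 2.44 CPM in CCl4 (4.04, adjusted p = 8.13e-10). Cdkn2b, which encodes the Cdk4 and Cdk6 inhibitor p15, was at 0.181 to 0.554 CPM in oil and 1.34 to 12.0 CPM in CCl4 (3.78, adjusted p = 1.06e-07). The CCl4 mice differed widely in Cdkn2b, with a mean of 4.52 ± 4.25 CPM (SD, n = 6). Cdkn2c, which encodes p18, was at 3.36 to 4.76 CPM in oil and 6.29 to 12.3 CPM in CCl4 (1.25, adjusted p = 2.69e-06). Its level was already 11.5 ± 0.894 CPM (SD, n = 6) in month 2 CCl4 and 9.77 ± 2.11 CPM (SD, n = 6) in month 6 CCl4, against 3.10 ± 1.37 CPM (SD, n = 6) in month 2 oil. Rbl2 (-0.44) and Cdkn1b (-0.24; adjusted p up to 0.0855 without CCl4 replicate 2, 4 or 6) were called lower, and both turned positive with library totals alone (0.11 and 0.295), which called 15 of the list higher and none lower.

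Of 37 tested genes of S phase checkpoint and homologous recombination, 19 were higher and 4 lower at month 12, with a median of 0.378. Across all tested genes 49% were called at that month and 25.9% were higher. Rad54b (2.43, adjusted p = 1.82e-06), Brca1 (1.66, adjusted p = 9.05e-06) and Fancd2 (2.06, adjusted p = 4.19e-05) had the smallest p-values. Nbn (-0.51), Atm (-0.36), Recql4 (-0.59) and Blm (-0.69) were called lower, and with library totals alone Nbn (0.04) and Atm (0.19) turned positive while Recql4 (-0.04) and Blm (-0.10) were not called. Blm also lost its call without CCl4 replicate 1, 2, 4 or 6 or oil replicate 4 or 5 (adjusted p up to 0.0826). Library totals alone called 30 of the list higher and none lower, in a fit that called most of all tested genes higher at month 12. The month 12 histone count under that scaling, given below, came from the same fit. Of 61 histone genes, taken by symbol from the histone clusters, 41 were higher and 5 lower, with a median of 1.199, beside the same shares of all tested genes. As a class these genes are transcribed mainly in S phase, which was not checked gene by gene. Hist1h3b gave 1.97 (adjusted p = 4.07e-08), Hist1h3i 1.58 (adjusted p = 4.46e-08) and Hist1h2ap 1.67 (adjusted p = 9.39e-08). Called lower were Hist1h1e (-0.75), Hist2h2be (-0.72), Hist1h4c (-0.49), Hist1h4h (-0.48) and Hist1h4d (-0.28), none of which was called lower with library totals alone, where 52 of the list were higher. Hist1h4d lost its call without CCl4 replicate 2, 4, 5 or 6 or oil replicate 3 or 6 (adjusted p up to 0.168). At month 2, 14 of the 61 histone genes were higher and none lower, where 6.93% of all tested genes were higher. The count was 9 without month 2 CCl4 replicate 3 and 23 with library totals alone. Histone genes are near-identical copies of each other, so single values are uncertain.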

How the data were processed

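TRIzol was used to extract total RNA of 36 livers, Ribo-Zero depleted ribosomal RNA, and stranded TruSeq libraries were sequenced as paired ends and mapped with Biojupies, per the labels' protocols. The authors deposited raw counts, whole numbers by gene symbol for each library. The submitters' processing notes name mm10, edgeR 3.30.3 and limma 3.44.3, and the annotation and counter are not given in the sources used here. No column was left out (0 not used). Within the groups no pair of libraries was a copy (90 replicate pairs, lowest chi-square per degree of freedom 23.87), and libraries of different groups were not compared in this way.

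Counts were filtered with filterByExpr (15338 genes kept), scaled by TMM and fitted with edgeR 4.0.16 (robust glmQLFit and glmQLFTest, R 4.3.3) in 1 model of 36 libraries and 6 groups without an intercept. Calls required p below 0.05 after Benjamini-Hochberg adjustment across the 15338 genes within a comparison. Set means per mouse used log2(CPM + 1). The procedure was tested on simulated data in which few genes changed, as many up as down. That setting does not bear on the scaling between groups that differ as broadly as these. Positions came from GENCODE vM21 on mm10. Counts that pseudogenes such as those of Ccnb1, Ccnb2, Tyms and Pcna could share are uncertain.

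Members and lists were chosen with earlier results of these data known. Named with values were the 2 members of each role with the smallest p at month 12, Mki67 and Ccnd1, the 3 with the smallest p in other comparisons, members whose call changed under an alternative and, in other lists, the 3 smallest p and genes called against the list median. Alternatives were RLE size factors, no low-count filter, 1 CPM in 6 libraries, library totals alone, DESeq2 1.42.0, a replicate block, the compared groups alone, either oil group alone for month 6, pseudocounts of 0.1 and 5, leaving out each library and leaving out 4 libraries that an earlier analysis of these data had named. Leaving out 7 libraries, and the alternatives for genes outside the members, were chosen after seeing the data.

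Same-numbered mice did not deviate together throughout: their deviations correlated between -0.464 and 0.469 over 6 pairs per comparison. Such mixed values cannot exclude a handling step shared by replicate number.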

Additional observations from a re-analysis of the deposited data

Results flagged for a closer look

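Dixon's criterion was applied to 144 groups of 6 mice, over the named members, the set means and their difference. Chance gives about 1 in 20 only for independent, normally distributed values, which CPM of genes that vary together need not be. In 13 of the groups a mouse stood apart from the rest. Month 2 oil replicate 2 was the mouse in 5 of them, with Ccnb2 at 1.28 CPM (next mouse 0.668), Nusap1 at 2.38 (1.68), Kif20a at 3.03 (1.63), Cenpf at 3.74 (2.00) and Ccne2 at 4.27 CPM (3.16). Month 12 CCl4 replicate 2 was highest by the same criterion in Ccne1 at 10.6 CPM (4.06), Mcm3 at 15.5 CPM (10.9) and Bub1b at 6.13 CPM (4.56). It also had the highest sum of oncofetal hepatocyte markers, 1050 CPM against a group median of 237 CPM, whose part was likewise not tested.

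The other 5 values came from 5 mice of 4 groups. Ccne1 was 2.48 CPM in month 12 oil replicate 4, where the next mouse had 0.726 CPM. That library had the highest pancreas acinar sum of its group. The highest Ccne1 also lay in the library with the highest acinar sum in month 2 oil (replicate 2, 2.33 CPM) and month 2 CCl4 (replicate 5, 2.76 CPM). At month 0 and in month 6 and month 12 CCl4 it did not. The part of acinar transcripts in Ccne1 was not tested. Ccnd1 was 89.9 CPM in month 0 replicate 5 (54.3) and 47.6 CPM in month 6 CCl4 replicate 2 (37.4). E2f2 was 5.16 CPM in month 2 CCl4 replicate 1 (2.23), the library with erythroid and neutrophil markers. Aurka was 2.37 CPM in month 6 CCl4 replicate 1 (1.45).

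In 34 members the effect of CCl4 against oil differed between month 12 and month 2 by the interaction test, and each was higher at month 12. Among S phase entry factors these were Ccnd1 (1.02 on the log2 scale) and E2f1 (0.686). Licensing genes gave 1.759 for Mcm2, 0.812 for Mcm3, 0.813 for Mcm4, 1.303 for Mcm5, 1.833 for Mcm6, 0.817 for Mcm7 and 1.514 for Cdc6. Pcna gave 0.539 and Rrm2 1.824. Kinases, cyclins and Foxm1 gave 1.355 for Cdk1, 1.982 for Ccna2, 2.74 for Ccnb1, 2.66 for Ccnb2, 1.61 for Aurka, 2.017 for Aurkb, 2.632 for Plk1 and 2.108 for Foxm1. Spindle and cytokinesis genes gave 1.407 for Mki67, 0.978 for Top2a, 1.267 for Kif11, 2.398 for Kif20a, 1.311 for Nusap1, 2.181 for Tpx2, 1.905 for Prc1 and 0.982 for Birc5. Kinetochore and checkpoint genes gave 2.712 for Cenpf, 1.422 for Cenpe, 1.842 for Bub1, 1.197 for Bub1b, 0.79 for Mad2l1, 2.779 for Cdc20 and 1.842 for Ube2c. The Ccnd1 difference kept its call in 10 of 24 omissions of 1 mouse and that of Bub1b in 13 of 24, and without month 2 oil replicate 2 the adjusted p of Mki67 was 0.0511.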

How the results depend on the processing

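Over the named members, 1489 of the values with 1 mouse left out and 854 of those under other alternatives kept their direction and their side of the threshold. At month 2 the 2 called members became 13 with library totals alone, 1 with no low-count filter, 4 with DESeq2, 6 with the compared groups alone and 1 without the 4 libraries or without the 7. At month 6 the 1 called member became 25 with library totals alone, 2 without the 4 libraries, 0 with month 2 oil alone and 2 with month 12 oil alone. For oil at month 12 against month 2, library totals alone and DESeq2 each called 1. For month 2 oil against month 0, the compared groups alone called 8, library totals alone 9 and the set without the 4 libraries 19, in place of 13. Leaving out 1 mouse gave 1 to 5 calls at month 2, 1 to 3 at month 6, 36 to 38 at month 12, 30 to 36 for the interaction, 9 to 19 for month 2 oil against month 0, 35 to 37 for CCl4 month 12 against 6, and 0 in the remaining comparisons. Without the 7 libraries 22 members kept an interaction call in place of 34, and 38 were called at month 12. With the replicate number as a block, 2, 1, 38 and 32 members were called at months 2, 6 and 12 and for the interaction. That fit called 11 for month 2 oil against month 0, 36 for CCl4 month 12 against 6, and 0 for CCl4 month 6 against 2 and for oil month 12 against month 2. The block cost Cenpe and Bub1b their interaction call and Ccna2 and Cenpe their month 0 call, and in no comparison did every mouse correlate best with its own number. The replication minus mitosis difference moved with the pseudocount. At 0.1 it was 1.957 at month 0, 2.003 in month 2 oil, 2.117 in month 12 oil, 1.474 in month 2 CCl4 and 1.675 in month 6 CCl4. At 5 it was 0.902 at month 0, 0.859 and 0.846 in month 2 and month 12 oil, and 0.69, 0.745 and 0.58 in month 2, 6 and 12 CCl4. Signs turned with library totals alone at month 12 for Atm (0.193), Ccnh (0.251), Cdkn1b (0.295), Dctpp1 (0.256), E2f5 (0.234), E2f6 (0.024), Hist1h4c (0.043), Hist1h4d (0.254), Hist1h4h (0.062), Lin52 (0.014), Nbn (0.042), Ncapd3 (0.267), Orc3 (0.18), Rbl2 (0.107) and Tyms (0.483), at month 2 for Mcm4 (0.03), Mcm5 (0.067), Pcna (0.102) and Rrm2 (0.087), at month 6 for Mcm4 (0.137), Mcm5 (0.151) and Pcna (0.247), and for E2f2 in the interaction (0.252). That scaling moved the median gene by 0.199 at month 2, 0.315 at month 6 and 0.543 at month 12. Apart from library totals at month 12, shares of all tested genes called under an alternative are not given here. Member counts under those alternatives can therefore not be set against them. Without the 4 libraries the sign turned for E2f2 in the interaction (0.361) and Rrm2 at month 2 (0.05), and without the 7 for E2f2 in the interaction (0.313) and at month 6 (-0.004) and for Mcm5 (0.071) and Rrm2 (0.09) at month 2. Against month 2 oil alone it turned at month 6 for Ccnb2 (-0.047), Ccne1 (-0.142), Ccne2 (-0.14) and Rrm2 (-0.12), and against month 12 oil alone for Pcna (0.001). With 1 mouse left out, values crossed 0 for Aurka at month 6 (-0.121 to 0.11), Ccnd1 at month 2 (-0.159 to 0.242), Ccne1 at month 6 (-0.197 to 0.434), Ccne2 at month 6 (-0.014 to 0.295), E2f2 in the interaction (-0.231 to 0.25) and Rrm1 at month 12 (-0.017 to 0.131), none of them called by the main test. Beyond fewer mice, the cause of these changes was not tested. Depth limits the members with a median below 1 CPM in both oil groups, which are Plk1, Foxm1, Aurkb, Cdc6, Bub1, Ccnb2, Ccne1, Ube2c, Cdc20 and Ccnb1.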
